A study of Homo sapiens with 12 samples.

Results

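The keratins KRT7, KRT8, KRT15, KRT17, KRT18, KRT19, KRT34, KRT80 and KRT81 and the transcription factor ELF3 were taken as a set of 10 named genes, and their transcript levels were followed across lines of A172, a cell line derived from a human glioblastoma. A gene was read by the probe set whose platform annotation gave its symbol alone, and where there were several the brightest on average was kept. By this rule 8 of the 10 genes were measured, among 18417 genes in all. KRT17 and KRT81 were not analysed here. The study placed hHSS1 (EMC10, formerly C19orf63), a secreted protein and a subunit of an endoplasmic reticulum membrane complex, into A172 cells and asked which transcripts differed. GeneChip Human Gene 1.0 ST arrays (Affymetrix) were hybridised with total RNA from 4 groups of 3 cultures each. These were wild-type A172 cells, a mock line that stably carries pcDNA3.1 without an insert, and clones 7 and 8, both stably transfected with pcDNA3.1 carrying hHSS1 with a histidine tag at its C-terminal end. Stable clones were kept in G-418, and exponentially growing cells were harvested on day 4 at less than full confluence. The mock line and each clone are 1 line apiece, so that p-values measure the spread between cultures of the same line, and the effect of the vector or of hHSS1 cannot be told apart from differences between lines.

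Keratins are the intermediate filament proteins of epithelial cells. A type I keratin pairs with a type II keratin to build a filament, and the pair KRT8 and KRT18 is the first to appear in simple epithelia. Glial cells normally build their filaments from GFAP, vimentin and nestin instead, although many glioma lines carry some keratin. ELF3 is a member of the ETS family of transcription factors with an epithelium-restricted pattern, and it acts in epithelial differentiation and in inflammatory responses.

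Levels are given on the log2 scale of the deposited values, on which a difference of 1 is a doubling, and array medians lay between 8.60 and 8.67. A gene was called different in a comparison at an adjusted p under 0.05 (limma, Benjamini-Hochberg over all genes) together with a difference of at least 1.5-fold. None of the 8 genes had a group mean under the lower quartile of the arrays, which lay between 7.00 and 7.12. The transfected gene, EMC10, measured 11.13, 10.43 and 10.69 on the wild-type arrays, 9.20, 9.33 and 9.51 on the mock arrays, 11.57, 11.72 and 12.30 on the clone 7 arrays and 12.13, 12.18 and 11.75 on the clone 8 arrays. All 6 clone arrays were above all 6 control arrays. The mock arrays were below the wild-type arrays by 1.40 ± 0.20 (SE), that is by 2.65-fold.

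Before the results, 2 arrays go against their labels and bear on the clones. Across 18417 genes, the array labelled clone 7 replicate 3 correlated at 0.9983 with clone 8 replicate 2 and at 0.9948 with clone 8 replicate 1, but only at 0.9913 and 0.9907 with the other clone 7 arrays. The array labelled clone 8 replicate 3 correlated at 0.997 and 0.9963 with clone 7 replicates 1 and 2, against 0.9883 and 0.9876 with the other clone 8 arrays. After each gene was centred on its mean over the 6 clone arrays, clone 7 replicate 3 correlated at 0.72 with clone 8 replicate 2 and at -0.68 with clone 7 replicate 1. EMC10 itself followed the same split, at 12.30 on the array labelled clone 7 replicate 3 and 11.75 on that labelled clone 8 replicate 3. Clone 7 replicates 1 and 2 correlated at 0.9986 with each other, and at 0.75 after the centring. Clone 8 replicates 1 and 2 were less alike, at 0.993 and, after the centring, at only 0.09. With the labels as given, 0 of 18417 genes were called between clone 8 and clone 7 (1328 had an unadjusted p under 0.05), and without both arrays 617 genes were called. The labels were kept, and the differences of the measured members are given with and without these arrays. Results on gene lists, other keratins, markers and likeness between genes are given with all 12 arrays only. Calls in a single clone among those genes were thus not checked without the 2 arrays. Because the arrays were left out for their own values, the smaller spread and p-values of the fit to the other 10 arrays follow in part from that choice.

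**Figure D1:**
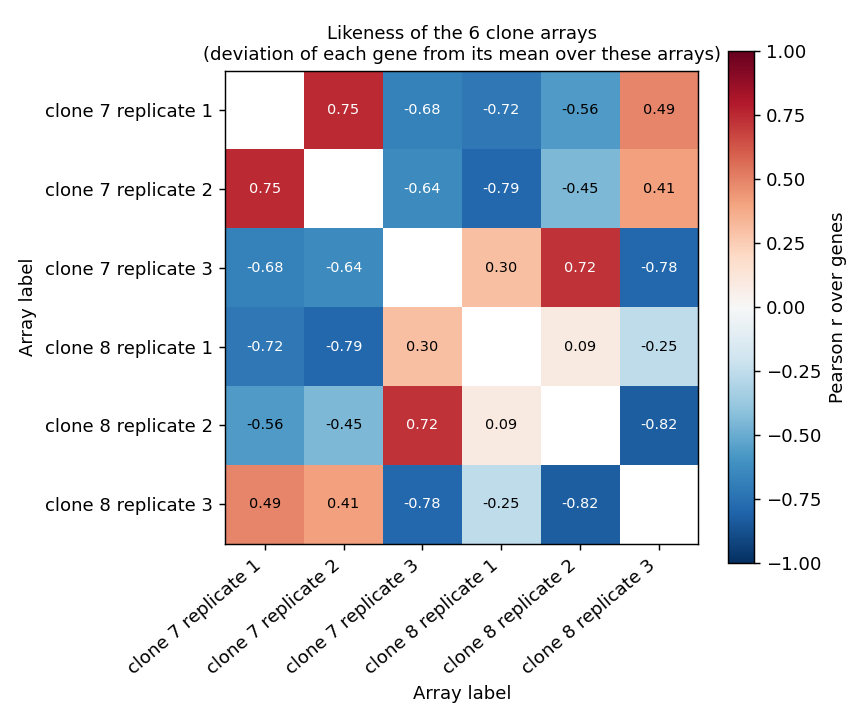
Pearson correlations between the 6 clone arrays, named on both axes by their labels, of each gene's deviation from its mean over these arrays. The array labelled clone 7 replicate 3 was positively correlated with clone 8 replicates 1 and 2 (0.30 and 0.72) and negatively with both other clone 7 arrays. The array labelled clone 8 replicate 3 was positively correlated with clone 7 replicates 1 and 2 (0.49 and 0.41). Clone 8 replicates 1 and 2 correlated at only 0.09 with each other.

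The 8 genes fell into different patterns over the lines. ELF3 was highest in the mock line. KRT15 and KRT34 were lowest in both clones, and KRT8 and KRT18 were lowest in wild-type cells. KRT7, KRT19 and KRT80 did not pass the adjusted p in any comparison of the main fit. The 250 bases before the transcription start were present for 3 of the 8 genes in a RefSeq table of promoters (GRCh38.p14), and these happen to come from each of the 3 patterns, so they are shown here 5′ to 3′ on the strand of the gene, with matches to the searched motifs in capitals. ELF3 lies on the forward strand at chr1:202010337-202010586, KRT34 on the reverse strand at chr17:41382307-41382556, and KRT8 on the reverse strand at chr12:52926470-52926719.
ELF3: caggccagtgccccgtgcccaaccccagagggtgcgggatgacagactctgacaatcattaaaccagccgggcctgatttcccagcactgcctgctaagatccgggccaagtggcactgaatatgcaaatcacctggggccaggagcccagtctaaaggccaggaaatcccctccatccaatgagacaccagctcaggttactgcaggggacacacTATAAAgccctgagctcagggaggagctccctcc
KRT34: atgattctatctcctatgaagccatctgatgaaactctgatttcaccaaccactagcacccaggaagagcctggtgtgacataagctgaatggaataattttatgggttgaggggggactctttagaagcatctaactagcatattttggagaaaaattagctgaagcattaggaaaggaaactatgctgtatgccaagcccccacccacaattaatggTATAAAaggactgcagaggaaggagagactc
KRT8: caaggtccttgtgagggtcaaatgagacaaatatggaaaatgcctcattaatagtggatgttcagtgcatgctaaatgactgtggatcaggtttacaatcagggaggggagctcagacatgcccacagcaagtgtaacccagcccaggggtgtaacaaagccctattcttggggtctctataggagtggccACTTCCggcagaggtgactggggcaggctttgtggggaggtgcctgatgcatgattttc
The motifs were GGAAGT, an ETS core with flanks that fits the family of ELF3, TATAAA, the TATA box, GGGCGG, the GC box, and TGANTCA, the AP-1 element, each sought on both strands. The capitals mark TATAAA, whose first letter lay 34 bases before the start in ELF3 and 31 bases before it in KRT34, and ACTTCC, the opposite strand of GGAAGT, whose first printed letter lay 59 bases before the start in KRT8. Of 35116 promoter windows of this length, 19.5% held GGAAGT, 10.7% TATAAA, 42.6% GGGCGG and 6.57% TGANTCA. A match of letters is a description of the sequence and not a bound site.

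ELF3 (chromosome 1, probe set 7908793) measured 9.58, 9.50 and 9.36 in wild-type cells, 10.29, 10.27 and 10.15 in the mock line, 9.83, 9.91 and 9.05 in clone 7 and 9.03, 9.17 and 9.84 in clone 8. All 3 mock arrays were above all other arrays. The clone arrays lay at 2 separate levels, between 9.03 and 9.17 for clone 8 replicates 1 and 2 and the array labelled clone 7 replicate 3, and between 9.83 and 9.91 for clone 7 replicates 1 and 2 and the array labelled clone 8 replicate 3. These are the same arrays that stood against their labels over all genes. The group means ran from 10.24 ± 0.08 (SD, n = 3) in mock through 9.59 ± 0.48 in clone 7 and 9.48 ± 0.11 in wild-type cells to 9.35 ± 0.43 in clone 8, and the arrays of the last 3 groups overlapped. In RNA from whole cultures, fewer cells that express a gene and less RNA per cell cannot be told apart.

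Against mock, ELF3 was lower in both clones together by 0.77 ± 0.19 on the log2 scale (-0.77, 1.70-fold, adjusted p = 0.0341) and was called. The difference was -0.89 ± 0.22 in clone 8 (adjusted p = 0.04, called) and -0.64 ± 0.22 in clone 7 (adjusted p = 0.168, not called). Between the clones and wild-type cells the difference was -0.01, with a 95% interval from -0.43 to 0.41. Mock was above wild-type cells by 0.76 ± 0.22 (1.69-fold), at an adjusted p of 0.121. The comparisons of mock with the clones and with wild-type cells use the same 3 mock arrays. The call of the clones against mock was lost when any single mock array (adjusted p from 0.103 to 0.147), any single wild-type array (0.0521 to 0.0545) or clone 8 replicate 1 (0.0589) was left out, and with all probe sets (0.0716), only the groups compared (0.0834) or the replicate number as a block (0.0727). The call of clone 8 alone was lost under 12 of 21 alternatives, with adjusted p from 0.0508 with trended and robust variances to 0.141 without clone 8 replicate 1, and also with all probe sets (0.0801), only the groups compared (0.0702) and the replicate block (0.0813).

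Without the arrays labelled clone 7 replicate 3 and clone 8 replicate 3, the difference between both clones and mock was close to the same at -0.75 ± 0.07 (adjusted p = 4.85e-05), and mock was above wild-type cells by 0.76 ± 0.07 (adjusted p = 6.66e-05), both called. The clones then separated, at -0.37 ± 0.08 from mock for clone 7 (adjusted p = 0.00922, under the fold limit) and -1.14 ± 0.08 for clone 8 (2.20-fold, called). Clone 8 was below clone 7 by 0.77 ± 0.09 (-0.77, adjusted p = 0.00015), whereas with all 12 arrays that difference was -0.25 ± 0.22 (adjusted p = 0.679). Against wild-type cells the mean of the clones stayed at 0.00, with an interval from -0.14 to 0.15.

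**Figure D2:**
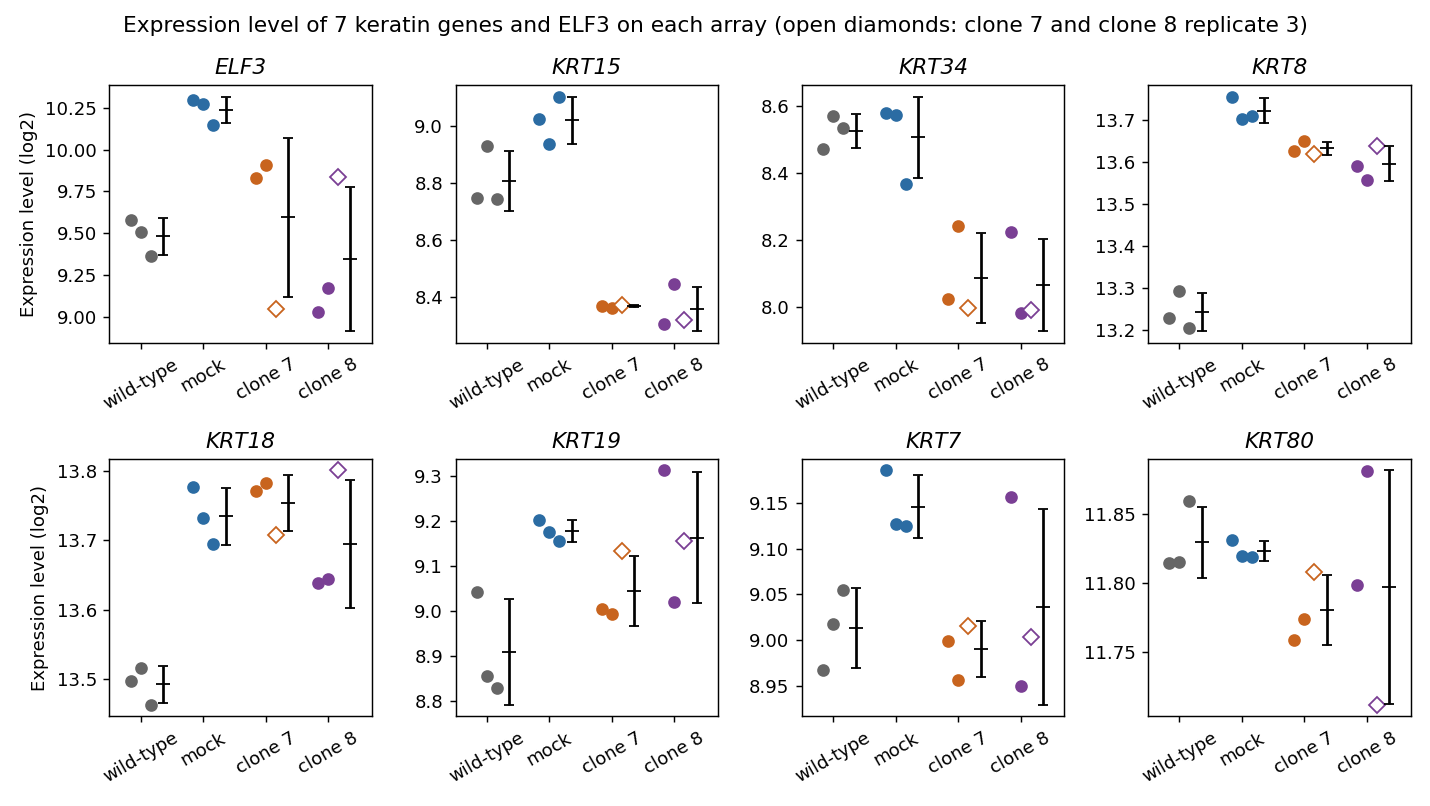
Log2 expression level of each measured gene on every array by group, with the group mean and SD (n = 3 arrays) beside the points, each panel on its own scale that does not start at 0. ELF3 was highest on the 3 mock arrays, KRT15 and KRT34 were lower on all 6 clone arrays than on all controls, KRT8 and KRT18 were lowest on the wild-type arrays, and the open diamonds, clone 7 and clone 8 replicate 3, exchange sides in the ELF3 panel.

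KRT15 and KRT34, both type I keratins, shared the second pattern. KRT15 is a keratin of basal keratinocytes and of the hair follicle bulge, and KRT34 is a hair keratin. KRT15 (chromosome 17, probe set 8015337) measured 8.75, 8.93 and 8.74 in wild-type cells and 9.03, 8.94 and 9.10 in mock. In the clones it measured 8.37, 8.36 and 8.37 (clone 7) and 8.31, 8.45 and 8.32 (clone 8). The highest clone array, at 8.45, was under the lowest control array, at 8.74. KRT15 was lower in both clones than in mock by 0.66 ± 0.06 (-0.66, 1.58-fold, adjusted p = 9.61e-05), with -0.65 ± 0.07 in clone 7 and -0.66 ± 0.07 in clone 8, all called. It was called in each of these comparisons under the 21 alternatives that kept the 1.5-fold limit, and in 0 of them with a 2-fold limit. Against wild-type cells it was lower by 1.36-fold (-0.45 ± 0.06, adjusted p = 0.000793), which is under the fold limit. The arrays that stood against their labels did not stand out for KRT15, and the difference from mock was -0.65 ± 0.07 without them. The clones differed by -0.01, with an interval from -0.16 to 0.14.

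KRT34 (chromosome 17, probe set 8015268) measured 8.47, 8.57 and 8.53 in wild-type cells and 8.58, 8.57 and 8.37 in mock. In the clones it measured 8.03, 8.24 and 8.00 (clone 7) and 8.22, 7.98 and 7.99 (clone 8). Here too the clones and the controls did not overlap, with clone arrays up to 8.24 and control arrays from 8.37. The clones were below mock by 1.35-fold (-0.43 ± 0.08, adjusted p = 0.00711) and below wild-type cells by 1.37-fold (-0.45 ± 0.08, adjusted p = 0.00369). These differences passed the adjusted p and not the fold limit, so that KRT34 was not called. Each clone alone gave nearly the same difference from mock, -0.42 in clone 7 (adjusted p = 0.0273) and -0.44 in clone 8 (adjusted p = 0.0177). The difference of both clones from mock was -0.39 ± 0.08 (adjusted p = 0.00828) without the doubted arrays. Against mock, KRT34 did not pass the adjusted p (limma) under every alternative. The highest value over the 21 alternatives was 0.0594 for both clones, 0.133 for clone 7 and 0.096 for clone 8. For both clones against wild-type cells it was 0.0288. Over the 12 arrays KRT15 and KRT34 had a Pearson r of 0.83, a description over arrays that share their groups.

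KRT8 and KRT18, the type II and type I partners of simple epithelia whose genes are neighbours on chromosome 12, were lowest in wild-type cells. KRT8 (probe set 7963567) measured 13.23, 13.29 and 13.21 in wild-type cells and 13.76, 13.70 and 13.71 in mock. Clone 7 gave 13.63, 13.65 and 13.62, and clone 8 gave 13.59, 13.56 and 13.64. All 9 arrays of transfected lines were above all wild-type arrays, and the clones lay just under mock without overlap. Mock was above wild-type cells by 1.39-fold (0.48 ± 0.05, adjusted p = 0.000416) and the clones were above wild-type cells by 1.29-fold (0.37 ± 0.05, adjusted p = 0.00038), neither past the fold limit. Between the clones and mock the difference was -0.11 ± 0.05 (adjusted p = 0.209). These values moved by 0.01 or less when the doubted arrays were left out.

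KRT18 (probe set 7955637) measured 13.50, 13.52 and 13.46 in wild-type cells and 13.78, 13.73 and 13.69 in mock. It was 13.77, 13.78 and 13.71 in clone 7 and 13.64, 13.64 and 13.80 in clone 8. Again every array of a transfected line was above every wild-type array. The clones were above wild-type cells by 1.17-fold (0.23 ± 0.05, adjusted p = 0.0155), and mock by 1.18-fold (0.24 ± 0.06, adjusted p = 0.0644). Without the doubted arrays the second of these also passed the adjusted p, at 0.0127. Between the clones and mock the difference was -0.01, with an interval from -0.12 to 0.10. KRT18 has many near-identical processed copies in the genome, so that its probes can share signal with them. Another probe set listed for KRT18 alone gave 0.28 for mock against wild-type cells and -0.03 for the clones against mock, and a probe set listed for MIR622 and KRT18 gave 0.25 and -0.02. Over the 12 arrays KRT8 and KRT18 had a Pearson r of 0.93.

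The other members showed smaller differences. KRT19 (chromosome 17, probe set 8015349), a small type I keratin without a tail domain, measured 9.04, 8.86 and 8.83 in wild-type cells, 9.20, 9.17 and 9.15 in mock, 9.004, 8.994 and 9.133 in clone 7 and 9.31, 9.02 and 9.16 in clone 8. Its wild-type mean was the lowest, and mock was above it by 0.27 ± 0.08 (adjusted p = 0.143). KRT7 (chromosome 12, probe set 7955613), a type II keratin of ducts and glands, measured 8.97, 9.02 and 9.05 in wild-type cells, 9.19, 9.13 and 9.13 in mock, 8.999, 8.956 and 9.015 in clone 7 and 9.157, 8.949 and 9.003 in clone 8. Mock was the highest group, and the clones were below it by 0.13 ± 0.05 (adjusted p = 0.192). KRT80 (chromosome 12, probe set 7963333), a type II keratin found near cell junctions, lay between 11.71 and 11.88 on all 12 arrays. Its difference between the clones and mock was -0.03, with an interval from -0.14 to 0.07, which leaves out any change of 1.5-fold.

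Counted over the set, 2 of the 8 genes (ELF3 and KRT15) were called in both clones against mock, both lower, where 0.728% of all genes were called and 0.32% were called lower. At the adjusted p alone the count was 3, all lower, against 6.38% of all genes. All 8 differences were below 0, with a median of -0.12 beside 0.01 over all genes. KRT17 and KRT81, which were not analysed, are not among them. The study listed KRT81 among the genes higher in A172 cells with hHSS1 than with the empty vector, the direction opposite to these 8. The 95% intervals of KRT18, KRT19 and KRT80 included 0. The members were chosen with earlier results of these data known. The counts and medians of this paragraph therefore describe the set and do not test it. Clone 7 against mock gave 1 called gene (0.7% of all genes) and clone 8 against mock gave 2 (0.76%), while clone 8 against clone 7 gave 0 (0% of all genes, and 0 of the 8 had an unadjusted p under 0.05). In mock against wild-type cells 0 of the 8 were called (0.673% of all genes) and 5 had an unadjusted p under 0.05, 1 of which (KRT8) passed the adjusted p, beside 2.24% of all genes. The median difference there was 0.23, beside 0.02 over all genes. In both clones against wild-type cells 0 were called (1.58% of all genes) and 5 had an unadjusted p under 0.05, and at the adjusted p alone 2 were higher and 2 lower, beside 9.95% of all genes. For comparisons with mock or wild-type cells the share of all genes at an unadjusted p under 0.05 was not counted. The counts at that limit, here and for the lists below, are given without it and cannot be weighed against it. Without the doubted arrays the counts called were 2, 1 and 2 against mock for both clones, clone 7 and clone 8 (1.04%, 2.17% and 2.06% of all genes), 1 between the clones (3.35%), 1 for mock against wild-type cells (1.08%) and 0 for the clones against wild-type cells (1.88%).

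**Figure D3:**
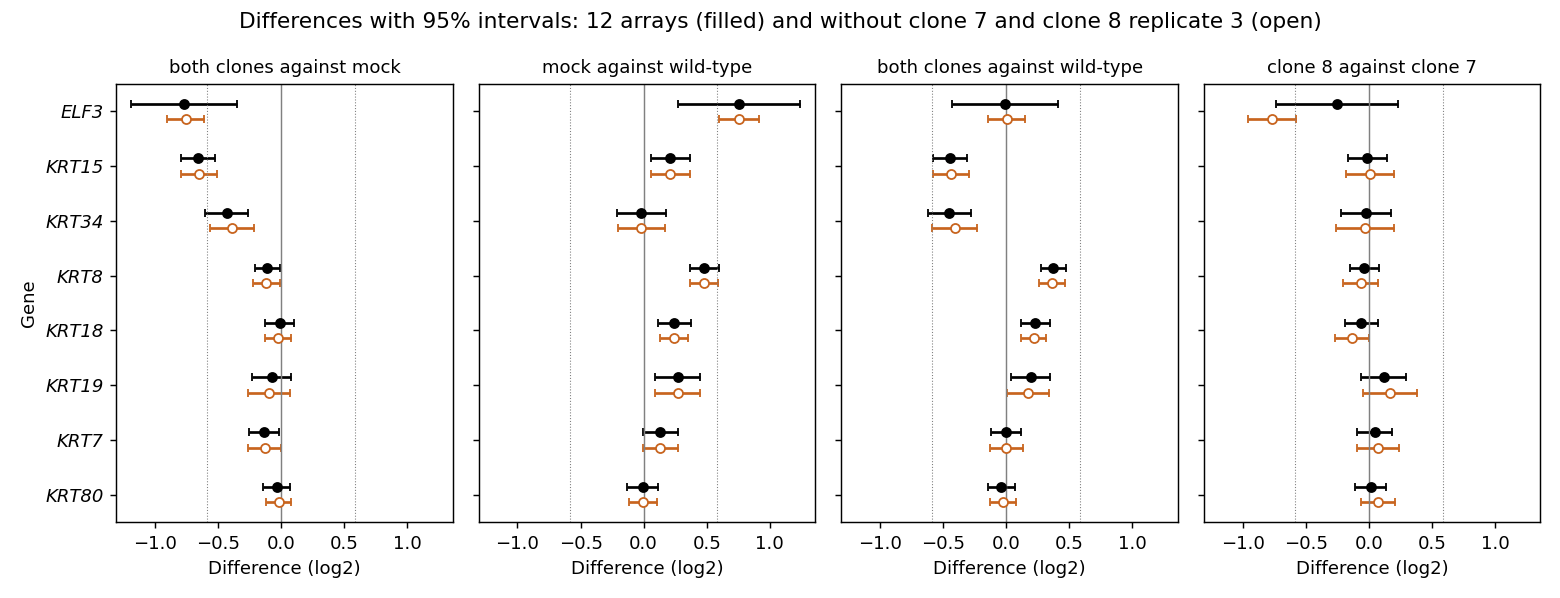
Log2 differences of the 8 measured genes with 95% intervals from the model in 4 comparisons, with all 12 arrays (filled) and without clone 7 and clone 8 replicate 3 (open), where dotted lines mark 1.5-fold. ELF3 was below mock in the clones and above wild-type cells in mock by a like amount (-0.77 and 0.76), with an interval that narrowed without the doubted arrays, while KRT15 and KRT34 differed from both controls in the same direction.

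The other members of the keratin family were set beside these genes. Of 54 keratin genes listed, 47 were measured, and 40 of them were not among the 8. Of these 40, 0 passed the adjusted p (limma) in any of the 6 comparisons with all 12 arrays, and 2 had an unadjusted p under 0.05 in the clones against mock. Of the 40, 6 lay under the lower quartile of the arrays in every group. Their differences between the clones and mock ran from -0.13 to 0.18, with a median of 0.04, beside -0.66 for KRT15 and -0.43 for KRT34. KRT19, the neighbour of KRT15 on chromosome 17, differed by -0.07 there, and the neighbours of KRT34, KRT33B and KRT31, by 0.04 and 0.12. The genes of the hair keratin cluster are alike in sequence, which can mix their probe signals. For mock against wild-type cells the other keratins ran from -0.05 to 0.14, beside 0.48 for KRT8.

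**Figure D4:**
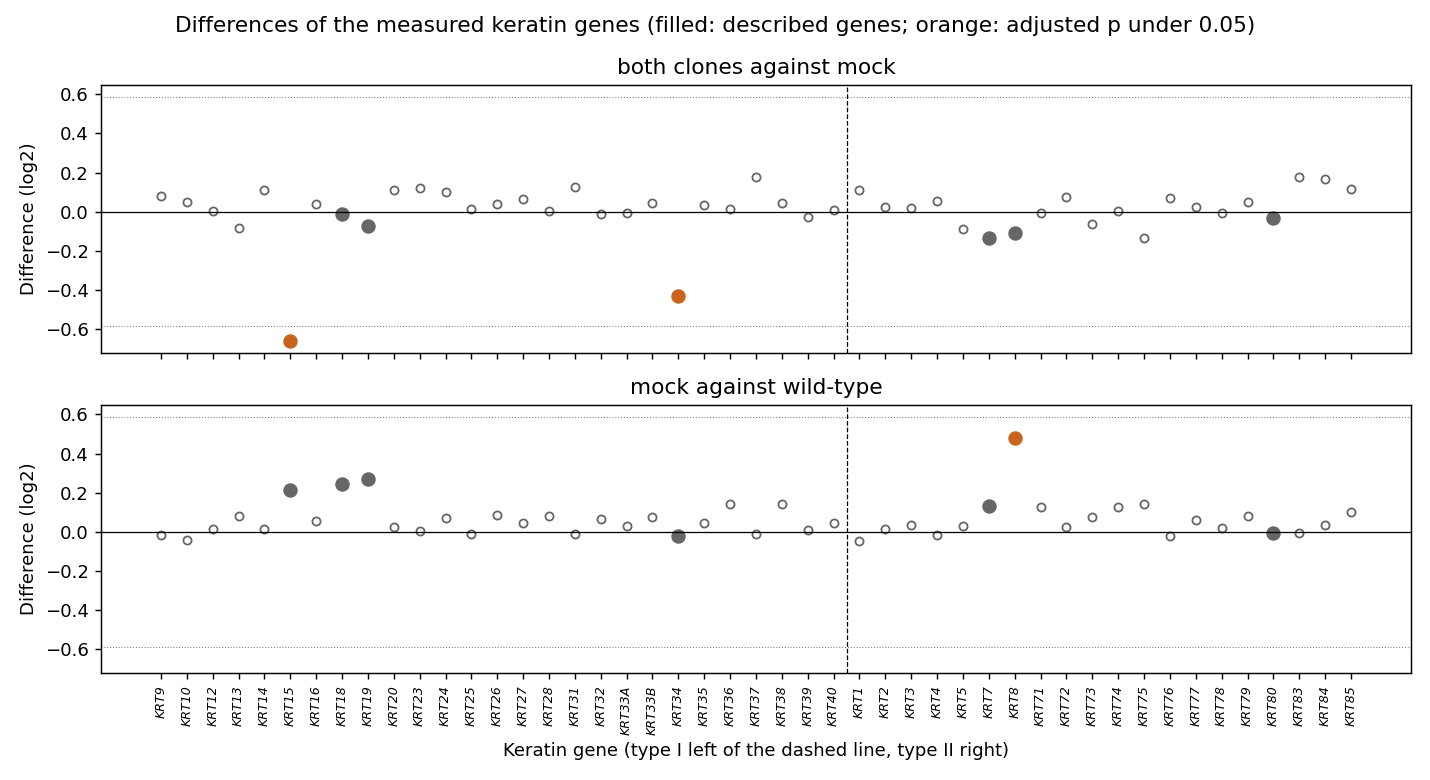
Log2 differences of the 47 measured keratin genes for both clones against mock (top) and mock against wild-type cells (bottom), type I genes left of the dashed line, with filled points for the genes described here, orange where the adjusted p was under 0.05, and dotted lines at 1.5-fold. In the top panel KRT15 (-0.66) and KRT34 (-0.43) lie apart from the other 40 keratins (-0.13 to 0.18), and in the bottom panel KRT8 (0.48) lies above them.

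Among 15 other intermediate filament genes, 1 was called lower in the clones against mock. It was NES, the nestin of neural progenitors, at -0.73 ± 0.06 (adjusted p = 5.89e-05), and it was also lower against wild-type cells at -1.17 ± 0.06. BFSP1, a lens filament protein, was called higher in clone 7 against mock (0.64 ± 0.11). At the adjusted p alone 1 was higher and 3 lower in the clones against mock, and the median was 0.00. Desmosomes and cytolinkers, which anchor keratin filaments at junctions, gave 0 called genes of 20 in the clones against mock (7 with an unadjusted p under 0.05), with a median of 0.06. At the adjusted p alone 1 of them was lower there and, against wild-type cells, 3 were higher and 1 lower. Cornified envelope genes, the products of terminal keratinocytes, gave 0 of 18 at the adjusted p in the 6 comparisons, with at most 3 at an unadjusted p under 0.05.

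ELF3 was read beside 26 measured ETS factors, itself included. In the clones against mock 2 were called, both lower, and the other was ETV1, at -0.67 ± 0.07 (adjusted p = 0.000359). Its group means were 10.09 in wild-type cells, 9.99 in mock, 9.35 in clone 7 and 9.29 in clone 8. Unlike ELF3, ETV1 was thus also lower in the clones than in wild-type cells (-0.77 ± 0.07, adjusted p = 5.96e-05). The median of the ETS factors was -0.03. Of 16 epithelial regulators, such as the grainyhead-like and OVOL factors, 0 passed the adjusted p in the clones against mock (2 at an unadjusted p under 0.05, median 0.03), and 1 was higher against wild-type cells. Of 9 mesenchymal regulators, 0 were called in the clones against mock and 2 were higher at the adjusted p alone, SNAI2 was called higher in clone 7 (0.71 ± 0.15), and PRRX1 was called lower in mock (-1.35 ± 0.22) and in the clones (-2.01 ± 0.19) against wild-type cells. At the adjusted p alone, PRRX1 included, 4 were lower and 1 higher in the clones against wild-type cells. In mock against wild-type cells 2 were lower and 0 higher.

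A list of 10 genes reported elsewhere as targets of ELF3 gave 1 called gene in the clones against mock. MMP13, a collagenase, was higher by 0.63 ± 0.10 (adjusted p = 0.00328), from 7.18 in mock to 7.82 in clone 7 and 7.80 in clone 8. Its mock mean lay close to the lower quartile of the arrays (7.00 to 7.12). Against wild-type cells, at 7.33, MMP13 was higher in the clones by 0.48 ± 0.10 (adjusted p = 0.0101 in limma), under the fold limit. TGFBR2, a receptor of transforming growth factor beta, was called lower in mock against wild-type cells (-0.75 ± 0.07) and in the clones against wild-type cells (-1.11 ± 0.06), where the ELF3 differences were 0.76 and -0.01. At the adjusted p alone 1 gene of the list was higher and 1 lower in the clones against mock. The lower one was TGFBR2 (-0.36 ± 0.06, adjusted p = 0.00544 in limma), in the comparison where ELF3 differed by -0.77. Of the list, 4 lay under the lower quartile of the arrays in every group. The median of the list was 0.03 in the clones against mock.

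The genes most like a called member over the 12 arrays were taken from 684 genes whose highest and lowest group means differed by at least 1.5-fold. For ELF3 they were MME, a membrane peptidase (Pearson r = 0.95), TNFSF10, the death ligand TRAIL (0.95), and ADAMTSL1 (0.95). TNFSF10 had means of 7.58 in wild-type cells, 8.44 in mock, 7.80 in clone 7 and 7.41 in clone 8, the same order of groups as ELF3. For KRT15 they were MCM10 (0.97) and XRCC2 (0.95), which act in DNA replication and in recombination, and RGS16 (0.95), a regulator of G protein signalling. RGS16 had means of 10.77 and 10.89 in wild-type and mock cells and 9.73 and 9.81 in clones 7 and 8. These correlations describe arrays that share their groups and carry no test.

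Markers of the tissue of origin and of other cells were read on the same arrays. Of 10 astroglial markers, 4 lay under the lower quartile of the arrays in wild-type cells. GFAP, the defining filament of astrocytes, had means from 8.65 to 8.79 over the 4 groups. AQP4 (6.09 to 6.27) and S100B (6.29 to 6.38) were under the quartile. Of these 10, NES was called lower in the clones against mock, as given above, and SOX2, a transcription factor of neural progenitors, was lower there at the adjusted p alone (-0.32 ± 0.08, adjusted p = 0.0285). In the clones against wild-type cells 2 were called, NES and SOX2 (-0.59 ± 0.08, adjusted p = 0.000527), both lower. Of 13 epithelial markers 12 were measured, 4 of which are members described above, and their mean level per array ran from 9.22 to 9.27 in wild-type cells, 9.39 to 9.40 in mock, 9.32 to 9.35 in clone 7 and 9.31 to 9.47 in clone 8. In the clones against mock ELF3 was the epithelial marker called. CDH1, which encodes E-cadherin, had means from 7.19 to 7.39, EPCAM from 7.62 to 7.85 and GRHL2 from 7.02 to 7.15. The mean level of 9 fibroblast markers ran from 9.90 to 9.97 in wild-type cells, 9.59 to 9.64 in mock, 9.21 to 9.72 in clone 7 and 9.13 to 9.68 in clone 8. In the clones against mock 0 of these 9 passed the adjusted p (1 at an unadjusted p under 0.05), and against wild-type cells COL1A1 (-0.73), COL1A2 (-1.61) and COL3A1 (-1.46) were called lower. Their part in the differences of the keratins and ELF3 was not tested. Of the remaining marker lists, TEK of 7 endothelial markers was called lower in the clones against mock (-0.93), and STMN2 of 6 neuronal markers was called lower in mock against wild-type cells (-0.79). Of 6 leukocyte markers 0 passed the adjusted or the unadjusted p in the clones against mock. In the clones against wild-type cells PTPRC, which encodes CD45, was called lower (-0.63 ± 0.16, adjusted p = 0.0277), ITGAM was higher at the adjusted p alone (0.32 ± 0.08, adjusted p = 0.0327), and 3 had an unadjusted p under 0.05.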

How the data were processed

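The deposited table held log2 expression levels that the authors had summarised and normalised, 1 value per probe set and array, for 33297 probe sets and 12 arrays. The submitters' processing notes name Partek without a version, and for the normalisation the method was not given in the sources used here. Arrays have no sequencing depth, so precision is set by how many there are. Names came from the platform annotation, in which 19460 probe sets had 1 symbol, 1754 several and 12083 none listed. Of the first, 19429 were found by Entrez number in RefSeq (GRCh38.p14), which changed 0 symbols. For 769 genes with several probe sets the one with the highest mean was kept. Samples were grouped by their titles.

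Group means of the 4 groups were fitted to 18417 genes with limma 3.58.1 in R 4.3.3 (lmFit, eBayes, no covariate), and 6 contrasts were adjusted by Benjamini-Hochberg. Both clones had equal weight. The limits of 1.5-fold and 0.05 are those of the study's gene tables for A172 cells. For its network analysis of these cells the study used a lower fold limit and a stricter p. The code was tested on simulated data. Errors are SEs of differences and SDs of levels.

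Besides the members, the text names genes of each list that were called (at most 4), EMC10, and the 3 genes most like each called member. Other genes, such as neighbours, marker genes and keratins that did not pass, were chosen after their values were seen. The members and lists were chosen with earlier results of these data known.

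Alternatives were quantile normalisation, median centring, leaving out dim probe sets, all probe sets, trended and robust variances, array weights, only the groups compared, a replicate block, other fold limits and leaving out each array. Leaving out clone 7 and clone 8 replicate 3 together was added after seeing the data. Replicate arrays, as labelled, correlated at 0.9876 to 0.9987 over the 18417 genes.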

Additional observations from a re-analysis of the deposited data

Results flagged for a closer look

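ELF3 differed between the clones by -0.77 ± 0.09 on the log2 scale (clone 8 minus clone 7, adjusted p = 0.00015 in limma) when the arrays labelled clone 7 replicate 3 and clone 8 replicate 3 were left out, which leaves 2 arrays of each clone. Clone 7 then measured 9.83 and 9.91 and clone 8 measured 9.03 and 9.17. With the labels as given the difference was -0.25 ± 0.22 (adjusted p = 0.679). It is listed because the clones differed in their distance from the same mock arrays by a test of the difference itself. The arrays were left out for their likeness to the other clone over all genes, ELF3 included, and whether their labels were exchanged was not tested.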

How the results depend on the processing

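Each of the 8 genes was tested in each of the 6 comparisons under 21 alternatives that kept the 1.5-fold limit. KRT15 was called in both clones, clone 7 and clone 8 against mock under each of these 21, and in 0 of these comparisons with a 2-fold limit. ELF3 was called in both clones against mock in 11 of 21 (adjusted p from 4.85e-05 to 0.147), in clone 8 against mock in 9 (5.83e-06 to 0.141), in clone 7 against mock in 0 (0.00492 to 0.403) and in mock against wild-type in 5 (2.57e-05 to 0.359). KRT7 and KRT19 were called under 0 alternatives. Their lowest adjusted p (limma) in clone 7 against mock was 0.00901 and 0.0164. For KRT19 it was 0.0023 in mock and 0.023 in both clones against wild-type. Of the genes of the set, 2, 1 and 2 were called against mock for both clones, clone 7 and clone 8. These counts were 1, 1 and 1 with all probe sets (0.487%, 0.39% and 0.466% of all features), with only the groups compared (0.641%, 0.766% and 0.483%) and with the replicate block (0.652%, 0.614% and 0.603%). With trended and robust variances clone 8 gave 1 (0.722%). With a 2-fold limit they were 0, 0 and 0 (0.147%, 0.157% and 0.157%), and with no fold limit 3, 2 and 3 (6.38%, 3.14% and 5.09%). Mock against wild-type gave 1 in place of 0 with array weights (1.09%), only the groups compared (1.09%), no fold limit (2.24%) or both doubted arrays left out (1.08%), both clones against wild-type gave 4 with no fold limit (9.95%), and clone 8 against clone 7 gave 1 without both doubted arrays (3.35%). Leaving out 1 array at a time gave 1 to 2 for both clones (0.581% to 0.966%), 1 to 2 for clone 8 (0.478% to 1.5%) and 0 to 1 for mock against wild-type (0.521% to 0.831%). Without clone 7 replicate 3 or clone 8 replicate 3 singly, ELF3 in mock against wild-type was called (adjusted p = 0.025 and 0.038). The cause of these changes was not tested.

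The replicate numbers were not used as pairs in the main fit. Deviations of same-numbered arrays correlated from -0.83 to 0.45 (18 pairs, median -0.04), and those of other pairs from -0.55 to 0.73 (median 0.007). The values -0.83 and 0.73 both involve doubted arrays, so these ranges cannot decide whether the numbers mark a shared batch. With the replicate block ELF3 had an adjusted p of 0.0727 in both clones and 0.0813 in clone 8 against mock, and the block ended no other call.

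Signs turned in 38 values, and 0 of these belonged to a difference past the adjusted p. With 1 array left out at a time, KRT18 ran from -0.0367 to 0.0110 in both clones and from -0.00045 to 0.0426 in clone 7 against mock, and in clone 8 against mock KRT19 ran from -0.0888 to 0.0571 and KRT80 from -0.0680 to 0.0164. For clone 8 against clone 7 KRT7 ran from -0.0136 to 0.0901, KRT15 from -0.0548 to 0.0154, KRT34 from -0.101 to 0.0544 and KRT80 from -0.0254 to 0.0590. For mock against wild-type KRT34 ran from -0.0547 to 0.0513 and KRT80 from -0.0141 to 0.00845, and for both clones against wild-type KRT7 from -0.0297 to 0.0222 and ELF3 from -0.134 to 0.125. Quantile normalisation turned KRT80 to 0.0004 in both clones and 0.0235 in clone 8 against mock. Array weights turned KRT19 in clone 8 against mock to 0.0153, KRT34 between the clones to 0.00352, and KRT7 and ELF3 in both clones against wild-type to -0.00196 and 0.114. Median centring turned KRT80 to -0.0103 between the clones and 0.00703 in mock against wild-type, and KRT7 to -0.00834 in both clones against wild-type. Without both doubted arrays KRT80 in clone 8 against mock was 0.0164, KRT15 between the clones 0.0100, and ELF3 in both clones against wild-type 0.00262.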
